A study of Homo sapiens with 5 samples.

Results

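The nuclear-encoded subunits of respiratory complex I were taken by name from a deposited table of counts per gene. The list held 36 subunits, and 34 of them had a row among the 24497 gene rows of the table. NDUFA7 of the electron input module and NDUFB8 of the distal membrane arm were not analysed here. The counts came from the established human cell line HEK293, which was derived from embryonic kidney and was grown without treatment in DMEM with glutamine and fetal calf serum. Batch B had 3 libraries and batch A had 2. The sample titles also begin with a different prefix in each batch, which cannot be told apart from batch, and the labels name no other difference. For each library, 1000 cells were lysed, and the reverse transcription product of 100 of them was amplified over 18 PCR cycles. Reverse transcription was primed with oligo-dT, a template-switching oligonucleotide with a random identifier marked the 5′ end of each cDNA, and the 5′ terminal fragments were kept for sequencing. Libraries are called here by the number that ends their column name, so batch B has libraries 1, 2 and 3 and batch A has libraries 2 and 3.

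Complex I is the entry point of the mitochondrial respiratory chain. It takes electrons from NADH, passes them along a chain of iron-sulphur clusters to ubiquinone, and pumps protons across the inner mitochondrial membrane. The electron input module (N) oxidises NADH and the quinone module (Q) reduces ubiquinone. Both stand in the matrix on a membrane arm whose proximal and distal parts pump the protons. A small set of core subunits is shared with bacteria, and the accessory subunits surround them. The mitochondrial genome encodes the core of the membrane arm, so all nuclear-encoded members of that arm are accessory. The finished complex holds each subunit once, except for the acyl carrier protein NDUFAB1, which is present in a pair of copies.

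The promoter windows below belong to the 4 members on which the results turn. NDUFA13 and NDUFA11 passed the test between the batches, and NDUFA1 and NDUFV2 had the highest and the lowest mean level. Each window runs from 250 bases before to 30 bases after the RefSeq gene start in GRCh38.p14 and is written 5′ to 3′ on the strand of the gene. Capitals mark a match, on either strand, to the ETS core CCGGAAG or the SP box GGGGCGGGG. NDUFA13 lies at chr19:19515975-19516254 on the plus strand, NDUFA11 at chr19:5903761-5904040 on the minus strand, NDUFA1 at chrX:119871582-119871861 on the plus strand and NDUFV2 at chr18:9102449-9102728 on the plus strand.
NDUFA13: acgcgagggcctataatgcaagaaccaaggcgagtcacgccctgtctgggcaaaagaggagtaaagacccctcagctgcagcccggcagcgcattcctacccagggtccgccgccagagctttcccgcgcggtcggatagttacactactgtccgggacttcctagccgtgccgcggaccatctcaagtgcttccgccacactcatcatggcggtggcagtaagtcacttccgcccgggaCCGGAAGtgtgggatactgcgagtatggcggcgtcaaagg
NDUFA11: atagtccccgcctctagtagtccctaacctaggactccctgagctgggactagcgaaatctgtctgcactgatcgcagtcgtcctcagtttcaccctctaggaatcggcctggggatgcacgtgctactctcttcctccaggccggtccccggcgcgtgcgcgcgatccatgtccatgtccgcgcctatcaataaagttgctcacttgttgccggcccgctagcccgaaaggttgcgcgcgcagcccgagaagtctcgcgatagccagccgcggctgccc
NDUFA1: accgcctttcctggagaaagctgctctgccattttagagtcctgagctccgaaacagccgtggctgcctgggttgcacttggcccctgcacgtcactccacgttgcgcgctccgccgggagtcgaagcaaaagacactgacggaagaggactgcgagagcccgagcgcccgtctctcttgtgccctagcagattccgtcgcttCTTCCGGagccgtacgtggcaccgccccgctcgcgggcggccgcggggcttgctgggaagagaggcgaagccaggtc
NDUFV2: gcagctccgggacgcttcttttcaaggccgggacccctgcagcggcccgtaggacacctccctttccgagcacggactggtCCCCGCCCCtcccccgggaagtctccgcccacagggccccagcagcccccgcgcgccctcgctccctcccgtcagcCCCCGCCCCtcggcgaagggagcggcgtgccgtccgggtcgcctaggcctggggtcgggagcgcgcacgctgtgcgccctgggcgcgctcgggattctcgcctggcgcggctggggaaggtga
The NDUFA13 window holds 1 ETS core on the strand of the gene and the NDUFA1 window holds 1 on the other strand. The NDUFV2 window holds a pair of SP boxes, and the NDUFA11 window holds none of the 6 motifs searched.

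RefSeq windows, each from 250 bases before to 50 bases after the start, were matched for 32 of the 36 listed members. The 4 without one were NDUFB5, NDUFB9, NDUFC2 and NDUFS5. The motifs were letter strings searched on both strands, and a match is a description of the sequence only. The YY1 core AAGATGGCG was in 15.6% of the members' windows (NDUFA6, NDUFA7, NDUFA9, NDUFS4 and NDUFS7), against 5.04% of the windows of the genes tested and 1.85% of all windows. The NRF1 core GCGCATGCG was in 12.5% of them (NDUFA8, NDUFB4, NDUFS6 and NDUFS7), against 4.29% of the windows of the genes tested and 2.1% of all windows. The ETS core was in 15.6% of the members' windows, against 21.8% of those of the genes tested and 10.7% of all windows. The SP box was in 18.8% of the members' windows, 29.3% of those of the genes tested and 16% of all windows. The string CCAAT was in 25% of the members' windows, 38% of those of the genes tested and 35.7% of all windows. TATAAA was in 9.38% of the members' windows, 4.68% of those of the genes tested and 12% of all windows. For the ETS core, the SP box and TATAAA the members thus lay between the shares of the genes tested and of all windows. Among the members, the YY1 core and the NRF1 core occurred together in the window of NDUFS7. The ETS core ends and the YY1 core begins with AAG, so matches to both could share those letters, but no member's window held both.

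Gene counts summed to 373687, 575472 and 685181 in batch B libraries 1, 2 and 3, and to 686883 and 803168 in batch A libraries 2 and 3. Levels are given as CPM, the gene's count scaled to the total gene count of its library, and 3 counts correspond to 3.74 to 8.03 CPM. This floor covers counting error only, while the 95% intervals given with log2 fold changes come from edgeR's fit. The intervals include a spread between libraries that edgeR shared across genes, so a gene's own spread added little to its interval. The HEK293 markers vimentin, the keratins KRT8 and KRT18 and the neurofilament genes NEFL and NEFM had counts in all 5 libraries, with vimentin at 481.3 CPM, while the kidney factor PAX2 averaged 2.46 CPM. Of the markers of other cells, ALB was at 0 in every library, DCN had 1 count in all and COL1A1 had between 3 and 13 counts a library. The labels give 20000 spike-in RNA molecules per cell for all 5 libraries. Spike-in RNA nevertheless made up at most 0.00348% of the counts in batch B and at least 0.259% in batch A, and the cause was not tested. The labels do not say that the libraries came from separate cultures, so the p-values below cover the spread among these 5 libraries alone, and that spread may be technical. Those from edgeR rest on the spread shared across genes. Within batches, the chi-square of the counts per degree of freedom had a median of 1.34 in 33 members with a mean count of at least 20. In all 5974 genes with such a count the median was 0.98, and the members were not matched to them by level.

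All 34 members were detected in all 5 libraries and their mean levels ranged over 71.8-fold. One end is counted per cDNA, so CPM was used to rank the genes. Levels were also divided by the length of the GENCODE 29 principal transcript (CPM per kb), because gene levels are otherwise compared per length. The median member was at 397.5 CPM, the middle of the distribution ran between 155.9 and 489.3 CPM (quartiles), and the SD of the log2 levels was 1.30. Within 2-fold of the median lay 19 members, 13 were lower than that and 2 were higher. On the per-kb scale the log2 SD was 2.04 and the highest member stood 216.7-fold above the lowest. Spearman's rho between the CPM and the CPM per kb orders was 0.905 across the 34 members, which share all 5 libraries. Between CPM and transcript length it was -0.527 across the same members.

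**Figure D1:**
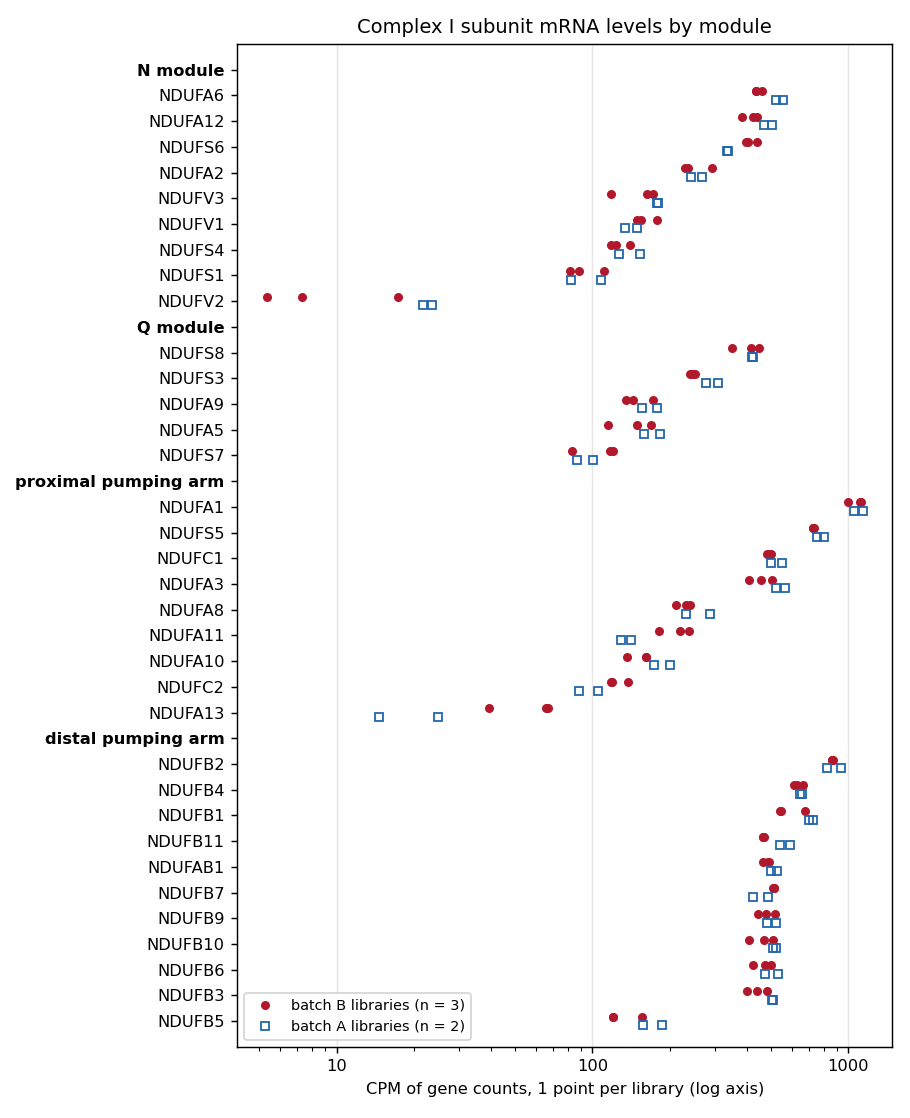
The horizontal log axis gives the CPM of each member in each library, with filled circles for the 3 batch B libraries and open squares for the 2 batch A libraries, grouped by module and ordered by mean level. Of the 11 distal arm members all but NDUFB5 lie above 397.5 CPM, the median of the 34, and NDUFV2 and NDUFA13 lie lowest.

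The distal part of the membrane arm had the highest module median, 487.9 CPM over its 11 members with a row, or 685.1 CPM per kb. The proximal part had a median of 241.0 CPM (338.7 CPM per kb) over 9 members, the N module 162.6 CPM (195.9 CPM per kb) over 9 members and the Q module 157.4 CPM (97.6 CPM per kb) over 5 members. Above the median of all members lay 10 distal arm members, 4 of the proximal arm, 2 of the N module and 1 of the Q module. The 6 core members had a median of 127.5 CPM (96.9 CPM per kb), and the 28 accessory members had 473.1 CPM (374.2 CPM per kb). Only 1 core member, NDUFS8, exceeded the median of all members, against 16 accessory members, and the same counts held per kb. These are descriptions over genes, which are not replicates, and no test was run between modules. Placing NDUFA6 in the N module and NDUFAB1, which sits in both arms, in the distal arm was a choice. Without NDUFA6 the N module had a median of 158.0 CPM, and without NDUFAB1 the distal arm had 487.5 CPM.

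Among the members placed in the N module, NDUFA6 was highest. It is a small LYR-motif protein that holds a copy of NDUFAB1 on the matrix arm. Its levels were 436.2, 436.2 and 459.7 CPM in batch B libraries 1, 2 and 3, and 557.6 and 521.7 CPM in batch A libraries 2 and 3. The batches did not overlap, and batch B was the lower one. NDUFA12, an accessory subunit at the joint of the N and Q modules, averaged 443.8 CPM. NDUFS6, which binds zinc, averaged 383.3 CPM, and NDUFA2, with a thioredoxin-like fold, 254.1 CPM. NDUFV3 at 162.6 CPM and NDUFS4 at 132.2 CPM are accessory subunits of the same module.

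The core subunits of the N module were all at or below 153.5 CPM. NDUFV1, which carries the flavin and binds NADH, averaged 153.5 CPM. NDUFS1 is the large subunit with several iron-sulphur clusters. It had 88.3, 81.7 and 110.9 CPM in batch B libraries 1, 2 and 3, and 107.7 and 82.2 CPM in batch A libraries 2 and 3, with the batches overlapping. Its principal transcript in GENCODE 29 is 11819 nt long, which gave it the lowest level per length, 7.97 CPM per kb.

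NDUFV2, the partner of NDUFV1 with an iron-sulphur cluster of its own, had the lowest mean over the 5 libraries, although in batch A alone NDUFA13 was lower. It had 2, 10 and 5 counts in batch B libraries 1, 2 and 3, and 15 and 19 counts in batch A libraries 2 and 3. These counts equal 5.35, 17.4 and 7.30 CPM in batch B and 21.8 and 23.7 CPM in batch A. Batch B library 1 lay under the 3-count floor of 8.03 CPM. The mean of NDUFV2 over the 5 libraries was 15.1 ± 8.36 CPM (SD, n = 5), or 16.2 CPM per kb, while NDUFV1 stood at 96.2 CPM per kb. The row of its processed pseudogene NDUFV2P1 held 12 counts in all, against 51 for NDUFV2. With the counts of pseudogene rows added to their parent genes NDUFV2 was still the lowest member, and the highest stood 58.1-fold above it. How the counting treated reads that match both rows was not tested.

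In the Q module, NDUFS8 was highest. It is a core subunit with a pair of iron-sulphur clusters on the way to ubiquinone. Its levels were 350.6, 417.0 and 448.1 CPM in batch B libraries 1, 2 and 3, and 425.1 and 418.3 CPM in batch A libraries 2 and 3, and the batches overlapped. NDUFS3, a core subunit without a cluster, averaged 265.2 CPM. NDUFA9 at 157.4 CPM binds a nucleotide and lies where the Q module meets the membrane, and NDUFA5, at 155.4 CPM, is an accessory subunit beside it. NDUFS7, with the last cluster before ubiquinone, was lowest in the module. It had 83.0, 119.9 and 116.8 CPM in batch B libraries 1, 2 and 3, and 100.5 and 87.2 CPM in batch A libraries 2 and 3. The 3 core members of the Q module thus ranged over 4.06-fold, from NDUFS8 to NDUFS7, with the batches overlapping for both ends.

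In the proximal membrane arm the levels ranged over 25.6-fold, between NDUFA1 and NDUFA13. NDUFA1 is a short single-helix membrane protein encoded on the X chromosome. It had 1110.6, 1119.1 and 999.7 CPM in batch B libraries 1, 2 and 3, and 1137.0 and 1053.3 CPM in batch A libraries 2 and 3. It was the highest member by CPM in the mean over the libraries, 1083.9 ± 56.5 CPM (SD, n = 5), and the next below NDUFB2 per kb. NDUFS5, a cysteine-rich protein of the intermembrane space, was the third by CPM. Its levels were 727.9, 736.8 and 728.3 CPM in batch B, and 806.5 and 754.5 CPM in batch A, with the batches not overlapping. NDUFC1 averaged 503.8 CPM and NDUFA3, another small membrane protein, 489.8 CPM. NDUFA8 (241.0 CPM), NDUFA10 (166.8 CPM), whose fold is that of a nucleoside kinase, and NDUFC2 (113.6 CPM) were lower.

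In the distal membrane arm the levels ranged over 5.88-fold, against 25.6-fold in the proximal arm, 31.9-fold in the N module and 4.06-fold in the Q module. Of its 11 members, 7 averaged between 467.4 and 505.7 CPM. These were NDUFB11, NDUFAB1, NDUFB7, NDUFB9, NDUFB10, NDUFB6 and NDUFB3. NDUFAB1, the only subunit present in a pair of copies in the complex, which also serves mitochondrial fatty acid synthesis, was one of them at 493.0 CPM. NDUFB2, NDUFB4 and NDUFB1 were higher. NDUFB2 had 861.7, 867.1 and 862.5 CPM in batch B libraries 1, 2 and 3, and 931.7 and 826.7 CPM in batch A libraries 2 and 3, the batches overlapping. It averaged 870.0 CPM and had the highest level per length, 1726.1 CPM per kb. NDUFB5 was the lowest of the module, with 120.4, 119.9 and 156.2 CPM in batch B and 186.3 and 156.9 CPM in batch A.

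The order of the levels was stable for members far apart and not for neighbours. Of the 561 pairs of members, 468 (83.4%) had the same order in all 5 libraries, but of the 33 pairs that stand next to each other in the order only 7 did. Spearman's rho between the mean levels in batch B and in batch A was 0.946 across the 34 members. The coefficient of variation over the 5 libraries had a median of 11.1%, the least being 3.27% for NDUFB4 and the greatest 56.0% for NDUFA13.

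The members' rows held 39313 counts in all 5 libraries together. The 11 rows of their processed pseudogenes held 29 counts and the 2 antisense rows held 25, of which 18 were for NDUFB2-AS1. After the levels had been seen, the first exon of each member's principal transcript was compared with the exons of other genes on the same strand in GENCODE 29. It was overlapped by another gene in 7 of the listed members. Of these, NDUFA7 and NDUFB8 had no row, and the 5 with a row were NDUFA11, NDUFA13, NDUFA9, NDUFC2 and NDUFV2. These had a median of 113.6 CPM, between 15.1 and 182.5 CPM, and none of them was above the median of all members. The 29 members without such an overlap had a median of 467.4 CPM, between 94.2 and 1083.9 CPM, and 17 of them were above the median of all members. The same medians were 42.7 CPM per kb with an overlap and 384.0 CPM per kb without one. How reads on overlapping genes were counted is not given in the sources used here, and the part of the overlap in these levels was not tested.

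**Figure D2:**
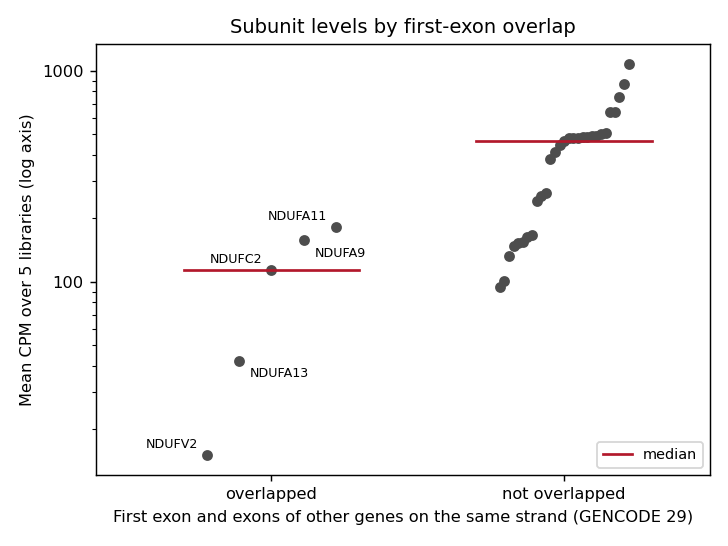
Each point is the mean CPM of 1 member over the 5 libraries on a log axis, split by whether another gene of GENCODE 29 overlaps the first exon of its principal transcript on the same strand, with a line at the median of each class. The 5 overlapped members lie between 15.1 and 182.5 CPM and the 29 others between 94.2 and 1083.9 CPM.

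The comparison the labels allow is that of batch B with batch A. NDUFA13 and NDUFA11, both accessory subunits of the proximal membrane arm and both encoded on chromosome 19, were higher in batch B, and no member was called lower. At an unadjusted p under 0.05, edgeR had 4 members higher and 6 lower, limma-voom 4 higher and 6 lower, and DESeq2 3 higher and 0 lower. After adjustment, DESeq2 and limma-voom called 0 lower as well. The share of all genes tested that passed the unadjusted threshold is not given here. No result is therefore drawn from these unadjusted counts or from those of the other lists below. The test was edgeR's quasi-likelihood test over 9215 genes, with a call at a Benjamini-Hochberg adjusted p under 0.05. All 34 members passed the filter on low counts. Of all genes tested 4.2% were called in either direction, 2.15% higher and 2.05% lower in batch B, and of the members 5.88%. In bulk RNA of this kind a change in the number of cells that make an mRNA and a change in mRNA per cell cannot be told apart.

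NDUFA13, also known as GRIM-19, spans the membrane near the quinone site. It had 25, 38 and 27 counts in batch B libraries 1, 2 and 3, and 10 and 20 counts in batch A libraries 2 and 3. As levels these were 66.9, 66.0 and 39.4 CPM in batch B and 14.6 and 24.9 CPM in batch A. Every batch B library was above both batch A libraries, although batch B library 3 had hardly more counts than library 1 at a greater depth. The mean was 57.4 ± 15.6 CPM in batch B (SD, n = 3) and 19.7 ± 7.31 CPM in batch A (SD, n = 2). The fitted log2 fold change was 1.48 (SE 0.31, 95% interval 0.87 to 2.09), or 2.79-fold, with an adjusted p of 0.000253 by edgeR.

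NDUFA11 is a membrane subunit at the face where complex I meets the other complexes in respiratory supercomplexes. It had 68, 127 and 164 counts in batch B libraries 1, 2 and 3, and 97 and 104 counts in batch A libraries 2 and 3. As levels these were 182.0, 220.7 and 239.4 CPM in batch B and 141.2 and 129.5 CPM in batch A. The batches did not overlap here either. The mean was 214.0 ± 29.3 CPM in batch B (SD, n = 3) and 135.4 ± 8.29 CPM in batch A (SD, n = 2). The fitted log2 fold change was 0.72 (SE 0.14, 95% interval 0.45 to 0.99), or 1.65-fold, with an adjusted p of 2.62e-05 by edgeR.

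Both calls depended on the tool. DESeq2's Wald test on the same filtered genes gave adjusted p = 0.0770 for NDUFA13 and 0.0924 for NDUFA11. On all genes with counts, a setting chosen after seeing the data, it gave adjusted p = 0.0238 for NDUFA13 and 0.00917 for NDUFA11. Both members were called with limma-voom and without each library in turn. The log2 fold change of NDUFA13 was 1.2 (adjusted p = 0.0481) when batch A library 2 was left out and 1.92 when batch A library 3 was left out. The transcripts of NDUFA13 and NDUFA11 have a GC content of 61.6% and 62.0%. With the GC trend of each library removed, a setting also chosen after seeing the data, the log2 fold changes were 1.33 for NDUFA13 and 0.56 for NDUFA11, and both calls held.

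**Figure D3:**
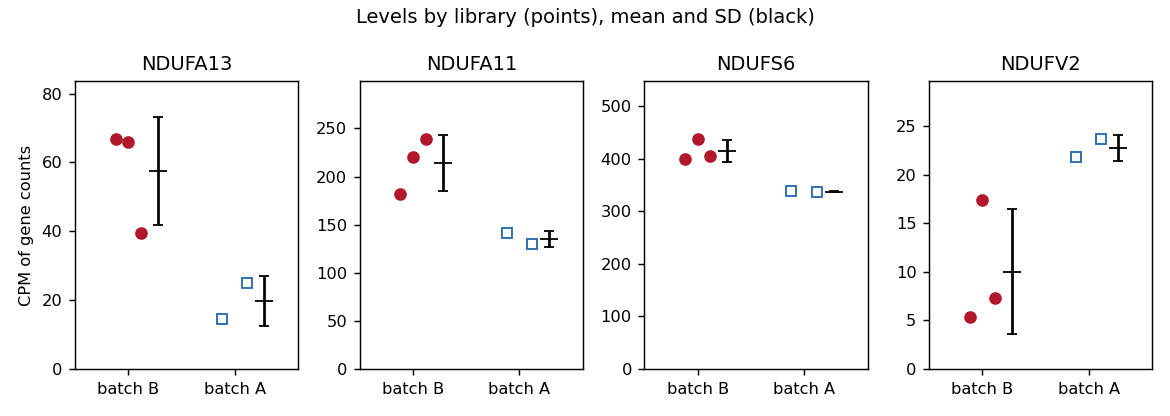
Points give the CPM of NDUFA13, NDUFA11, NDUFS6 and NDUFV2 in each library, batch B (n = 3) on the left and batch A (n = 2) on the right of each panel, with the mean and SD in black. The batches do not overlap in any of the 4 panels, and batch B is the lower one only for NDUFV2.

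NDUFS6 was the uncalled member with the lowest adjusted p, and NDUFV2 the one with the largest change, both of the N module. NDUFS6 had 398.7, 437.9 and 405.7 CPM in batch B libraries 1, 2 and 3, and 337.8 and 336.2 CPM in batch A libraries 2 and 3. Its log2 fold change was 0.33 (SE 0.11), with an adjusted p of 0.0541. It passed the threshold with library totals as the scaling (adjusted p = 0.0493) and over genes with a mean count of at least 20 (adjusted p = 0.0206). For NDUFV2, whose counts are given above, the log2 fold change was -1.10 (SE 0.48, 95% interval -2.03 to -0.16), with an adjusted p of 0.201. It was -1.74 when batch B library 2 was left out and -0.81 when batch B library 3 was. A decrease of 2-fold is thus within the interval only for NDUFV2, and an increase of 2-fold only for NDUFA13. The upper end for NDUFA11, at a log2 fold change of 0.99, lies just short of 2-fold.

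The other 30 members had log2 fold changes between -0.32 for NDUFB5 and 0.41 for NDUFC2. For NDUFA1 the log2 fold change was -0.00 (95% interval -0.22 to 0.22) and for NDUFB2 it was 0.00 (95% interval -0.22 to 0.22). NDUFB11 was called lower with the GC trend removed (log2 fold change -0.37, adjusted p = 0.0377), and had -0.26 (adjusted p = 0.177) without that correction.

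**Figure D4:**
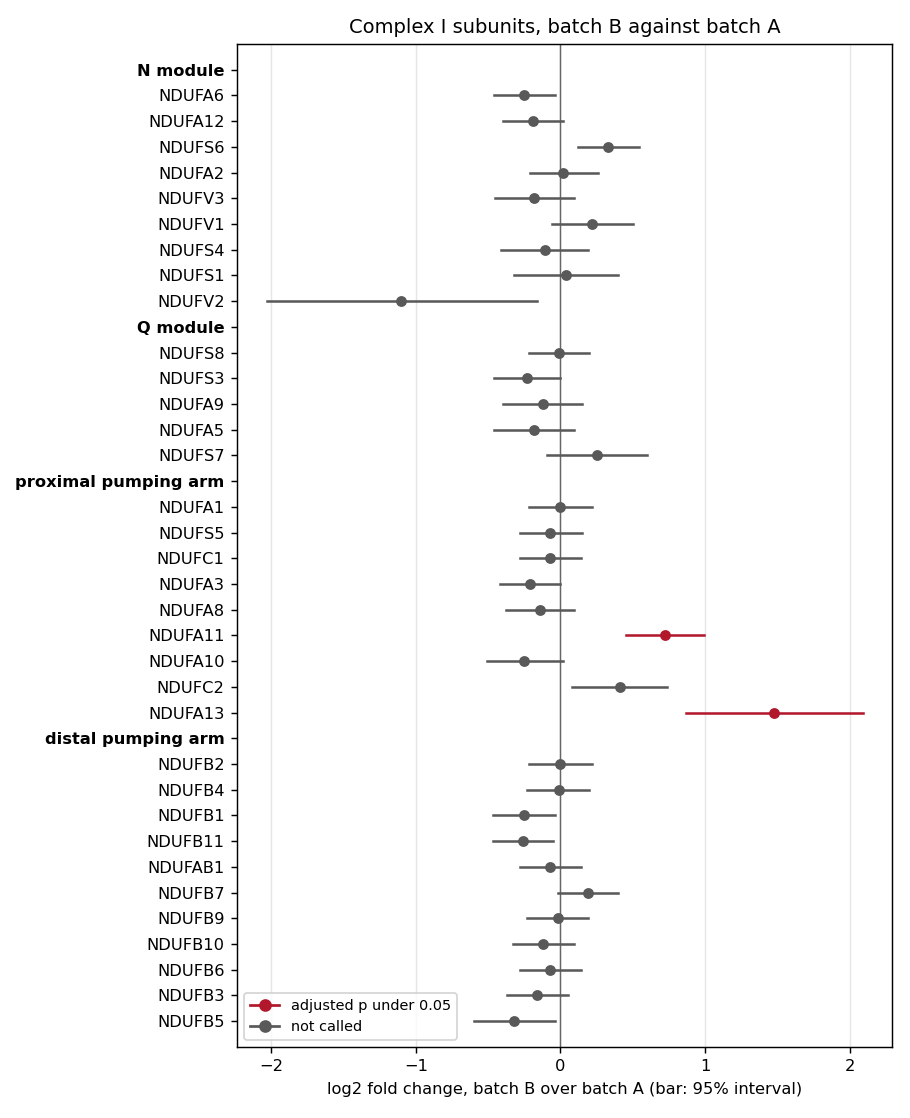
The horizontal axis gives the log2 fold change of batch B over batch A for each of the 34 members, with bars for the 95% interval and red for an adjusted p under 0.05 by edgeR. NDUFA13 at 1.48 and NDUFA11 at 0.72 are the called members, and most others lie close to 0.

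A majority of the members lay slightly below 0. The log2 fold change was negative for 24 of the 34 (70.6%), against 49.6% of all genes tested, and its median was -0.07 in the members and 0.00 over all genes tested. The median was -0.11 in the N module, -0.12 in the Q module, and -0.07 in both parts of the membrane arm. Without batch A library 2 the median of the members was 0.00, and without batch A library 3 it was -0.13.

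By CPM, the libraries of the batches did not overlap for 21 members. In 6 of them (17.6%) batch B was higher, against 13.5% of all genes tested, and in 15 (44.1%) it was lower, against 17.8% of all genes tested. With CPM scaled by TMM factors, a setting chosen after seeing the data, 11 members (32.4%) were lower in batch B without overlap, against 16.1% of all genes tested, and 6 (17.6%) were higher, against 15.0%. The members summed to 11595.3, 12504.5 and 12418.6 CPM in batch B libraries 1, 2 and 3, and to 13302.1 and 12622.5 CPM in batch A libraries 2 and 3. The distal arm members summed to 5519.3 ± 225.0 CPM in batch B (SD, n = 3) and 5975.9 ± 284.6 CPM in batch A (SD, n = 2). The N module members summed to 2069.9 ± 132.7 CPM in batch B and 2197.5 ± 31.8 CPM in batch A.

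Across all genes tested with a transcript GC content, 8615 in number, Spearman's rho between the log2 fold change and GC content was 0.223. Across the 34 members it was 0.402, and 0.297 without NDUFA13 and NDUFA11. Of the 7 members with a GC content of at least 60%, 5 had a positive log2 fold change, and of the 27 others 5 did. Apart from the setting with the GC trend removed, the part of GC content in these differences was not tested.

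The other genes of the complex were set beside the members in the same test. Of the 7 mitochondrially encoded subunit mRNAs, which make the core of the membrane arm, 5 were called higher in batch B (MT-ND1, MT-ND2, MT-ND3, MT-ND4 and MT-ND5) and 0 lower by edgeR, with 5 higher and 0 lower at an unadjusted p under 0.05. DESeq2 called 1 of them higher, and edgeR called 3 when batch B library 1 was left out and 1 when batch A library 3 was. They summed to 20335.2, 16190.2 and 14289.7 CPM in batch B libraries 1, 2 and 3, and to 12601.9 and 11469.6 CPM in batch A libraries 2 and 3. These sums fell in the order of rising total gene count, with batch B library 3 and batch A library 2 close in depth (685181 and 686883). The most abundant of these mRNAs was MT-ND4, with 1986, 2210 and 2279 counts in batch B libraries 1, 2 and 3. In batch A libraries 2 and 3 it had 2044 and 2161 counts. It averaged 4160.4 ± 1032.1 CPM in batch B (SD, n = 3) and 2833.2 ± 201.6 CPM in batch A (SD, n = 2). Its log2 fold change was 0.58 (SE 0.13). The part of depth in these differences was not tested. Every batch B sum was above both batch A sums, and this held on TMM-scaled CPM. For the nuclear-encoded members every batch B sum was below both by CPM, but not on TMM-scaled CPM, where batch B library 2 summed to 12582.8 and batch A library 3 to 12299.8.

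Of 19 assembly factors, which build the complex and leave it, 0 were called higher and 4 were called lower in batch B by edgeR, which were NDUFAF2, NDUFAF3, NDUFAF4 and COA1. At an unadjusted p under 0.05, 1 was higher and 8 were lower, and DESeq2 called 0 higher and 1 lower. Without batch A library 2 edgeR called 1 lower, and without each of the other libraries in turn it called 2. NDUFAF4 averaged 159.3 ± 11.6 CPM in batch B (SD, n = 3) and 539.8 ± 52.0 CPM in batch A (SD, n = 2), a log2 fold change of -1.72 (SE 0.12). The other 3 had log2 fold changes of -0.53 for NDUFAF2, -0.38 for NDUFAF3 and -0.55 for COA1. The median of the assembly factors was -0.26, with 12 of the 19 negative.

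Of 37 nuclear-encoded subunits of complexes II to V, 2 were called higher and 3 lower, with a median log2 fold change of -0.10 and 29 of them negative. Called higher were COX8A of cytochrome oxidase (0.44) and ATP5D of ATP synthase (0.42). Called lower were the Rieske protein UQCRFS1 (-0.40) and, of ATP synthase, ATP5F1 (-0.37) and ATP5J (-0.39). DESeq2 on the same genes called 0 of the 37, and without batch A library 2 edgeR also called 0 of them. EdgeR called 1 higher and 1 lower without batch A library 3, 1 higher and 0 lower without batch B library 2, and 2 higher and 1 lower without batch B library 3. Their most abundant gene was COX7C, of cytochrome oxidase, at 1258.4 CPM. Of the 9 regulators of mitochondrial biogenesis that could be tested edgeR and DESeq2 called 0, with 1 higher and 2 lower at an unadjusted p under 0.05 by edgeR, and the most abundant was YY1 at 212.1 CPM.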

How the data were processed

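The counts are those the authors deposited, whole numbers per gene in 1 table of 5 libraries. The submitters' processing notes name STAR 2.4.0a and cutadapt 1.2.1 and the build hg19 (GRCh37), with no roles. Not given in the sources used here are the counter, its annotation, its strand setting and how identifiers were collapsed. Each column was placed in the batch whose sample titles begin with the same prefix as the column name. The members and lists were chosen with earlier results of these data known. The 52 spike-in rows stayed out of totals and tests.

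From the counts, CPM of gene counts was computed, and edgeR 4.0.16 (R 4.3.3) was run on genes past its default filter, which hold 97.1% of gene counts, with TMM scaling, batch as the factor and Benjamini-Hochberg adjustment over all genes. The script was tested on simulated data with changes larger than those reported here and the same spread for all genes. That test does not show the error rate of the calls made here. All members could be named. Values in every library were given for the called members, for the 3 highest and 3 lowest and for the ends of each module, and of other lists the called genes and the most abundant one were named, with means, fold changes or sums. NDUFB5, NDUFC2 and NDUFB11 were named after their values were seen, as was NDUFS6. Transcript length and GC content came from GENCODE 29 by gene name, since no annotation of the files' build was used. The APPRIS principal transcript with the best support was taken, and the longest where several tied. Promoter windows came from RefSeq. Alternatives were other scalings, DESeq2 1.42.0, limma 3.58.1 voom, other filters, thinning, leaving out each library and, chosen after seeing the data, GC correction, DESeq2 without a filter and TMM-scaled CPM.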

Additional observations from a re-analysis of the deposited data

How the results depend on the processing

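Of 474 log2 fold changes of members over 14 settings, 433 kept their direction and side of the threshold. No paired analysis was possible because the batch A columns end in 2 and 3 while the labels number those samples 1 and 2, so the labels' numbers could not be given to columns, and no source says that the column numbers pair libraries. With the DESeq2 Wald test 41 genes were called (29 higher and 12 lower in batch B) and 0 members (0 higher), and without a filter it called 104 (59 higher and 45 lower). After thinning to the smallest library 176 genes were called (96 higher and 80 lower), and the distal arm median was -0.00. Genes called higher numbered 121 with no filter on low counts and 130 with the GC trend removed, where 1 member was called lower. Per kb the log2 SD of the levels was 2.04 and the highest over the lowest member 216.7. Without 1 library in turn 138 to 333 genes were called (79 to 170 higher and 58 to 163 lower), the median of the members was -0.13 to 0.00 and that of the proximal arm -0.13 to 0.04. Directions that turned were all of uncalled members. With DESeq2 size factors NDUFA1 had 0.00, with the DESeq2 Wald test 0.00 and at a mean count of at least 20 it had 0.02, as had NDUFS8 0.01 and NDUFB4 0.00. NDUFB2 had -0.02 with library totals, -0.02 without a filter, -0.01 by DESeq2 without a filter and -0.03 with the GC trend removed, where NDUFS7 had -0.01, NDUFB4 0.04 and NDUFB7 -0.04. After thinning NDUFS1 had -0.06, NDUFAB1 0.03, NDUFB4 0.06 and NDUFB9 0.07. Leaving out 1 library gave ranges of -0.09 to 0.08 for NDUFA2, -0.07 to 0.05 for NDUFS8, -0.24 to 0.00 for NDUFA9, -0.07 to 0.08 for NDUFA1, -0.32 to 0.04 for NDUFA8, -0.15 to 0.02 for NDUFC1, -0.13 to 0.01 for NDUFS5, -0.05 to 0.04 for NDUFB4, -0.18 to 0.03 for NDUFB6, -0.10 to 0.06 for NDUFB9, -0.17 to 0.26 for NDUFS1, -0.21 to 0.02 for NDUFS4 and -0.10 to 0.12 for NDUFB2. The cause of these changes was not tested. At these depths NDUFV2 rests on 51 counts in all.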
